A study of Gossypium barbadense with 48 samples.

Results

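TUBB1 and TUBB5 are 2 genes of beta-tubulin, measured here in the developing fiber of the cotton *Gossypium barbadense* and chosen by their identifiers, Gbar_D08G020540 and Gbar_D11G033670, out of 69337 genes listed. Fibers of the cultivars PimaS-7 and 5917, the parents of a mapping population for fiber strength, were sampled every 5 days from the day of flowering, 0 days post anthesis (DPA), until 35 DPA. Each of the 8 stages had 3 libraries in either cultivar, which gives 48. By the study's methods the first stage was taken as whole ovules, so a comparison with 0 DPA also compares tissues. No treatment or transgene is named for either cultivar. Both genes were picked by the study from these same libraries, as genes with changed expression that lie in intervals for fiber strength and belong to modules tied to the late stages. That they were called here is therefore no independent evidence, and the values below describe how the genes differ from each other.

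A beta-tubulin pairs with an alpha-tubulin, and such pairs assemble into microtubules. In a cotton fiber, a single cell of the seed coat that first elongates and then fills its wall with cellulose, microtubules under the plasma membrane guide the complexes that spin cellulose, so their layout is tied to that of the wall. Plants hold several beta-tubulin genes that differ in where and when they are used.

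TUBB1 lies on chromosome D08, positions 57694676 to 57697588 of the HAU v2.0 build of the Pima 3-79 genome, on the minus strand. TUBB5 lies on chromosome D11, positions 65956343 to 65959701 of the same build. The names are matches to proteins of other species given by the study. The sequences at hand that tell the genes apart are the primers designed by the study for RT-qPCR, shown here because they mark the transcripts meant by each name, all printed 5′ to 3′ in lower case.
TUBB1 forward: tcccggggttcacaacaata
TUBB1 reverse: ccttggtgctcattttgcct
TUBB5 forward: accgctatgttcaggagg
TUBB5 reverse: agcaaagtcgtgaaaggg
The primers have 20 bases for TUBB1 and 18 bases for TUBB5. No other sequence of these genes was used here.

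Total counts ranged from 28222056 to 43390702 per library, and no pair of libraries held identical counts. Levels are the deposited FPKM, fragments scaled by gene length and by library size, so that genes of different length can be compared. Differences were tested with edgeR on the read counts, each pair of groups on its own 6 libraries. A call needed an adjusted p no higher than 0.05 together with a change of 1 or more on the log2 scale in either direction. Reads of the A and D copies and of related tubulin genes may be shared, and how they were assigned is not given in the sources used here. In bulk tissue, fewer cells of a type and less RNA per cell cannot be told apart.

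TUBB1 was close to absent in ovules and became one of the most abundant transcripts of the late fiber. In 5917 ovules the libraries were at 0.167, 0 and 0.241 FPKM, and in PimaS-7 ovules at 0, 0.310 and 0 FPKM, with counts of at most 21. At 10 DPA they were at 10.1, 6.16 and 8.42 FPKM in 5917 and at 5.38, 0.683 and 3.80 FPKM in PimaS-7. The PimaS-7 library of replicate 2 lay well under the other 2 at that stage. At 15 DPA the 5917 libraries were at 253, 233 and 226 FPKM and those of PimaS-7 at 55.0, 53.4 and 65.4 FPKM, without overlap. At 20 DPA the order was the other way round, with 166, 153 and 164 FPKM in 5917 and 308, 307 and 235 FPKM in PimaS-7.

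At 25 DPA TUBB1 was at 1163, 1898 and 1239 FPKM in 5917 and at 939, 1737 and 1099 FPKM in PimaS-7, and the cultivars overlapped. In 1 library of PimaS-7 at that stage it ranked 22 of all genes by FPKM. At 30 DPA it was at 1944, 1160 and 1583 FPKM in 5917 and at 843, 767 and 666 FPKM in PimaS-7. At 35 DPA the 5917 libraries held 882, 566 and 468 FPKM and those of PimaS-7 30.0, 54.8 and 23.7 FPKM. The lowest 5917 library was thus above the highest PimaS-7 library at 30 and at 35 DPA, and by far more at 35 DPA.

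TUBB5 was present from the start and covered a narrower range. In ovules the libraries were at 5.74, 4.54 and 5.16 FPKM in 5917 and at 3.27, 3.48 and 3.02 FPKM in PimaS-7, well above TUBB1. At 5 DPA they were at 50.8, 50.3 and 47.2 FPKM in 5917 and at 24.6, 17.2 and 12.7 FPKM in PimaS-7. At 10 DPA the values were 121, 121 and 147 FPKM in 5917 and 88.0, 96.6 and 87.0 FPKM in PimaS-7. So at each of the first 3 stages every 5917 library was above every PimaS-7 library.

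At 15 DPA TUBB5 was at 429.7, 429 and 438 FPKM in 5917 and at 201, 231 and 264 FPKM in PimaS-7. At 20 DPA the cultivars were close, with 376, 367 and 364 FPKM in 5917 and 393, 413 and 370.02 FPKM in PimaS-7. At 25 DPA the 5917 libraries held 753, 1023 and 767 FPKM and those of PimaS-7 632, 969 and 729 FPKM, so that the groups overlapped at both stages. At 30 DPA they were at 1096, 672 and 895 FPKM in 5917 and at 482, 484 and 435 FPKM in PimaS-7. At 35 DPA they were at 669.6, 466 and 407 FPKM in 5917 and at 96.1, 108 and 52.3 FPKM in PimaS-7. In PimaS-7 the 35 DPA libraries of TUBB5 overlapped those of 10 DPA, while those of TUBB1 overlapped those of 15 DPA.

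**Figure D1:**
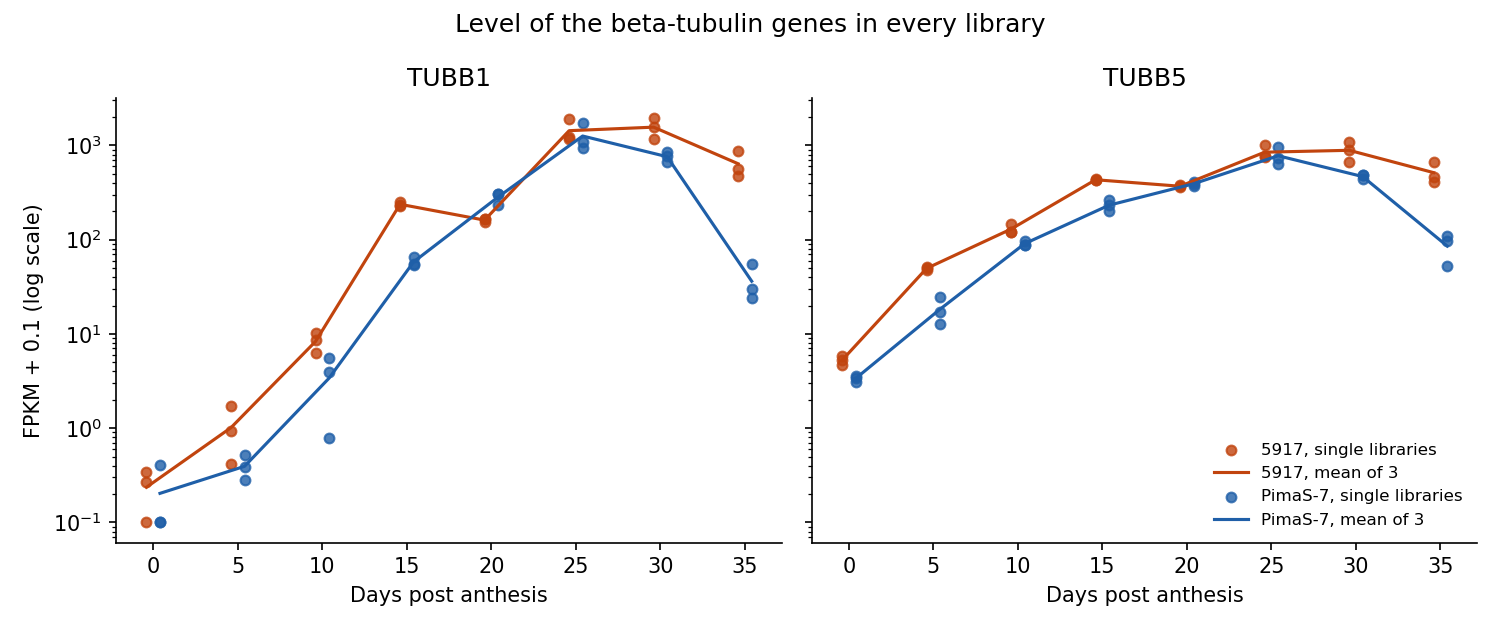
FPKM plus 0.1 on a log axis against days post anthesis, for TUBB1 (left) and TUBB5 (right), with a point for each of the 48 libraries and lines through the means of 3. TUBB1 starts between 0 and 0.310 FPKM in ovules and reaches 1944 FPKM, and in both panels PimaS-7 lies far under 5917 at 35 DPA.

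Scaled to its own highest stage mean, TUBB5 had the earlier and more gradual onset and TUBB1 the later and steeper one. TUBB5 first passed 10% of its highest mean at 10 DPA in both cultivars, with 14.6% in 5917 and 11.7% in PimaS-7. TUBB1 passed 10% at 15 DPA in 5917, with 15.2%, and only at 20 DPA in PimaS-7, with 22.5% after 4.60% at 15 DPA. With counts scaled to library size and by the TMM factors of edgeR (CPM) in place of FPKM, TUBB5 passed 10% at 15 DPA in both cultivars. On that TMM-normalized scale the stage of passing 10% differed between the genes in PimaS-7 alone. In 5917 at 15 DPA TUBB5 then stood at 41.1% of its highest mean and TUBB1 at 12.9%. By FPKM, TUBB5 stood at 48.7% of its highest mean in 5917 at 15 DPA and at 29.9% in PimaS-7.

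The peak fell at the same stage for both genes within a cultivar. In 5917 the highest means were at 30 DPA, 1562 ± 393 FPKM for TUBB1 and 888 ± 212 FPKM for TUBB5 (SD, n = 3), and their libraries overlapped those of 25 DPA, with means of 1434 ± 404 and 848 ± 152 FPKM. In PimaS-7 the highest means were at 25 DPA, 1258 ± 422 FPKM for TUBB1 and 777 ± 174 FPKM for TUBB5, and no other stage overlapped them. Leaving out replicate 1 of 25 DPA or of 30 DPA put the highest mean of 5917 at 25 DPA for both genes, and leaving out replicate 3 of 25 DPA did so for TUBB5. At their highest mean, in 5917 at 30 DPA, both genes together took 0.535 ± 0.138% of all counts (SD, n = 3).

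Relative to the highest mean, the decline by 35 DPA was deeper for TUBB1 than for TUBB5 and deeper in PimaS-7 than in 5917. The highest mean lay at 30 DPA in 5917 and at 25 DPA in PimaS-7, so the spans of time differ. Between the cultivars, the difference of the step from 30 to 35 DPA was called for neither gene by edgeR. At 35 DPA TUBB1 stood at 40.9% of its highest mean in 5917 and at 2.87% in PimaS-7. TUBB5 stood at 57.9% in 5917 and at 11% in PimaS-7. In the order of stage means of 5917, 35 DPA came next after 30 and 25 DPA for both genes, and for TUBB5 its libraries overlapped those of 15 DPA. In PimaS-7 it came after 15 DPA for TUBB1 and after 10 DPA for TUBB5.

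**Figure D2:**
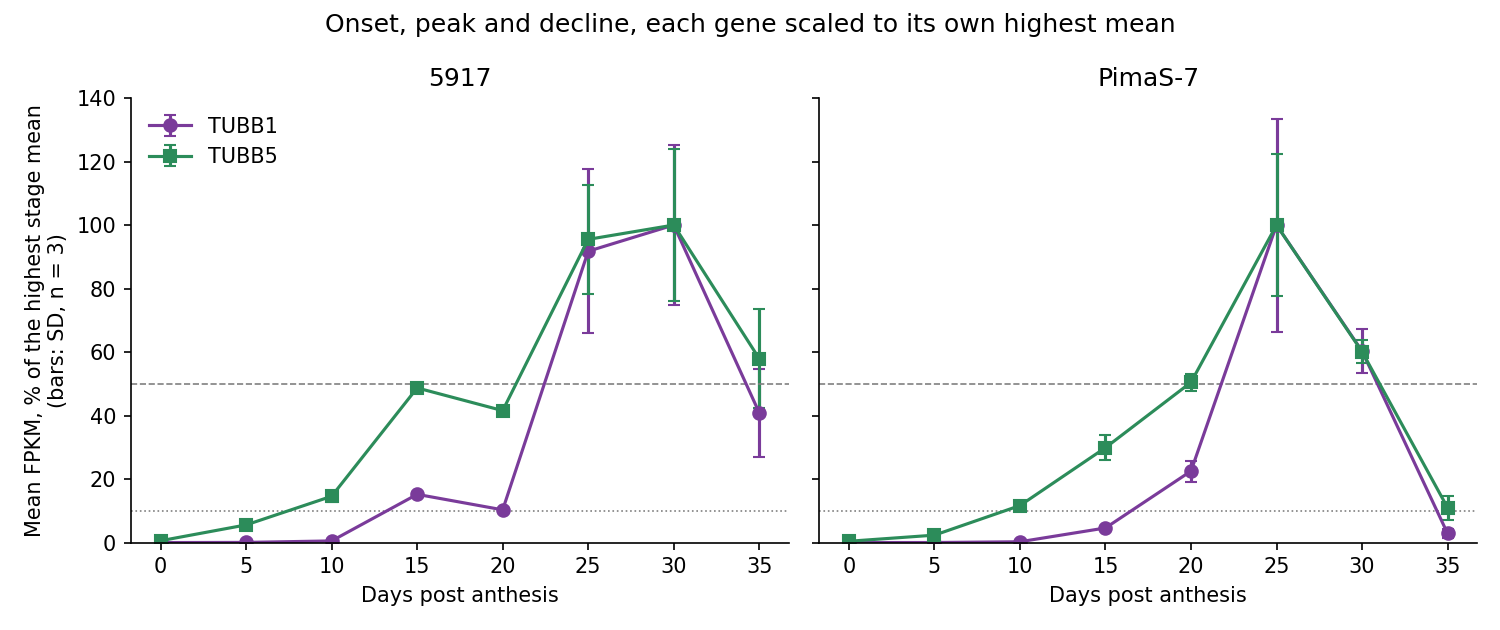
Stage mean FPKM as a percent of the highest stage mean of the same gene and cultivar, against days post anthesis, for 5917 (left) and PimaS-7 (right), with bars for SD over 3 libraries and lines at 10% and 50%. TUBB5 lies above TUBB1 from 5 to 20 DPA in both panels, and at 35 DPA the values are 40.9% and 57.9% in 5917 against 2.87% and 11% in PimaS-7.

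Tested step by step between 5 and 25 DPA, TUBB1 had the larger log2 fold change wherever both genes were called. For the step from 0 to 5 DPA no order of the genes is read, since TUBB1 was close to absent in ovules. With single libraries left out, the log2 fold change of TUBB1 in that step ran from 2.40 to 3.70 in 5917 and from 1.08 to 7.43 in PimaS-7. From 0 to 5 DPA TUBB5 rose in 5917 (log2 fold change 3.65, SE 0.16, adjusted p = 8.92e-06, edgeR) and in PimaS-7 (2.73, SE 0.28, adjusted p = 0.000562), where 14.4% and 9.63% of all genes tested were called higher. TUBB1 was called higher in 5917 only (3.07, SE 1.03, adjusted p = 0.0426), from counts of at most 16 in ovules, and it depended on each of 4 libraries, replicates 1 and 3 of 0 DPA and of 5 DPA (without them adjusted p 0.0632 to 0.153). In PimaS-7 its log2 fold change was 1.66 with an SE of 1.24 (adjusted p = 0.352). Without replicate 2 of the PimaS-7 ovules, the only one of the 3 with TUBB1 counts, it was called there too. The difference of this step between the cultivars was -1.33 on the log2 scale (SE 1.83, adjusted p = 0.754, edgeR), in a test that called 1.65% of genes.

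From 5 to 10 DPA both genes rose in both cultivars, while 8.76% of all genes were called higher in 5917 and 9.51% in PimaS-7. The log2 fold change was 3.61 (SE 0.48, adjusted p = 0.00148, edgeR) for TUBB1 and 1.83 (SE 0.16, adjusted p = 0.000372) for TUBB5 in 5917. In PimaS-7 it was 3.82 (SE 0.71, adjusted p = 0.00574) for TUBB1 and 2.63 (SE 0.29, adjusted p = 0.00113) for TUBB5. The calls of this step held under each alternative run.

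The step from 10 to 15 DPA held the largest rise of TUBB1 among the steps called in either cultivar. It rose 35.5-fold in 5917 (log2 fold change 5.15, SE 0.20, adjusted p = 2.73e-06, edgeR) and 22.4-fold in PimaS-7 (4.48, SE 0.62, adjusted p = 0.00233). TUBB5 rose 4.08-fold in 5917 (2.03, SE 0.13, adjusted p = 2.26e-05) and 3.21-fold in PimaS-7 (1.68, SE 0.13, adjusted p = 0.000294). Of all genes, 8.43% were called higher in 5917 and 5.45% in PimaS-7.

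From 15 to 20 DPA the cultivars parted. In 5917 neither gene was called, with log2 fold changes of -0.60 for TUBB1 (SE 0.10, adjusted p = 0.0421, under the fold asked for) and -0.27 for TUBB5 (SE 0.08, adjusted p = 0.24), and 0.374% of all genes were called there. In PimaS-7 TUBB1 rose 4.98-fold (2.31, SE 0.16, adjusted p = 0.000732, edgeR), where 2.94% of genes were called higher. TUBB5 had a log2 fold change of 0.78 in PimaS-7 (SE 0.13, adjusted p = 0.0114), under the fold asked for.

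The step to 25 DPA was called for both genes in both cultivars, with 14.9% of all genes called higher in 5917 and 6.2% in PimaS-7. TUBB1 rose 9.47-fold in 5917 (log2 fold change 3.24, SE 0.43, adjusted p = 0.0013, edgeR) and 5.55-fold in PimaS-7 (2.47, SE 0.29, adjusted p = 0.00159). TUBB5 rose 2.41-fold in 5917 (1.27, SE 0.35, adjusted p = 0.0283) and 2.45-fold in PimaS-7 (1.29, SE 0.21, adjusted p = 0.00573). The call of TUBB5 in 5917 was lost without any 1 of the 20 DPA libraries (adjusted p 0.109 to 0.137) and without replicate 2 of 25 DPA (log2 fold change 0.88). That in PimaS-7 fell under the fold asked for by limma on FPKM (0.96).

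From 25 to 30 DPA in 5917 neither gene was called, with log2 fold changes of 0.33 (SE 0.52) for TUBB1 and 0.30 (SE 0.47) for TUBB5 and an adjusted p of 0.944 for each (edgeR), and 0.0395% of all genes were called. In PimaS-7 both genes fell, each with a log2 fold change of -1.12, with SE 0.30 and adjusted p = 0.0316 for TUBB1 and SE 0.23 and adjusted p = 0.0139 for TUBB5 (edgeR), while 7.14% of genes were called lower. For TUBB1 the call was lost without PimaS-7 25 DPA replicate 2 (log2 fold change -0.76), 25 DPA replicate 3, 30 DPA replicate 2 or 30 DPA replicate 3. For TUBB5 it was lost without 25 DPA replicate 2 (-0.87) or 30 DPA replicate 2. By limma on FPKM the fold was smaller, at -0.68 for TUBB1 and -0.71 for TUBB5, and neither was called.

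Over the last step in PimaS-7 TUBB1 fell 22.2-fold (log2 fold change -4.47, SE 0.48, adjusted p = 0.017, edgeR) and TUBB5 fell 5.79-fold (-2.53, SE 0.37, adjusted p = 0.0274), with 2.39% of genes called lower. Single libraries decided both calls, since TUBB1 lost it without replicate 1 or 2 of 30 DPA or replicate 1 of 35 DPA (adjusted p 0.0569 to 0.119) and TUBB5 without any of the 30 DPA libraries or replicate 1 of 35 DPA (adjusted p 0.0518 to 0.144). Over all genes tested, 1889 were called in this step, and without PimaS-7 30 DPA replicate 2 or 35 DPA replicate 1 edgeR called 0, with 8038 and 9980 genes at an unadjusted p under 0.05, while DESeq2 on all 6 libraries called 4998. With single libraries left out, the folds stayed between -5.11 and -4.19 for TUBB1 and between -2.91 and -2.25 for TUBB5. In 5917 the log2 fold change was -1.44 (SE 0.40, adjusted p = 0.303) for TUBB1 and -0.94 (SE 0.37, adjusted p = 0.476) for TUBB5, where 0.0182% of genes were called. By DESeq2 TUBB1 was called lower there too (-1.47, adjusted p = 0.00428).

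Over the whole late period, 35 against 25 DPA, both genes were called lower in PimaS-7. This comparison was chosen with earlier results of these data known, since the last single steps had a wide spread. Its start is the stage of the highest mean in PimaS-7, taken from the same libraries. TUBB1 fell 50.3-fold (log2 fold change -5.65, SE 0.60, adjusted p = 0.00128, edgeR) and TUBB5 fell 13.1-fold (-3.71, SE 0.45, adjusted p = 0.00167), while 15.8% of genes were called lower. Both calls held without any 1 of the 6 libraries. In 5917 the values were -1.13 (SE 0.45, adjusted p = 0.259) for TUBB1 and -0.66 (SE 0.39, adjusted p = 0.471) for TUBB5, where 3.5% of genes were called, and DESeq2 called TUBB1 (-1.13, adjusted p = 0.038). A fall of TUBB1 in 5917 was thus called by 1 tool and not by the other.

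**Figure D3:**
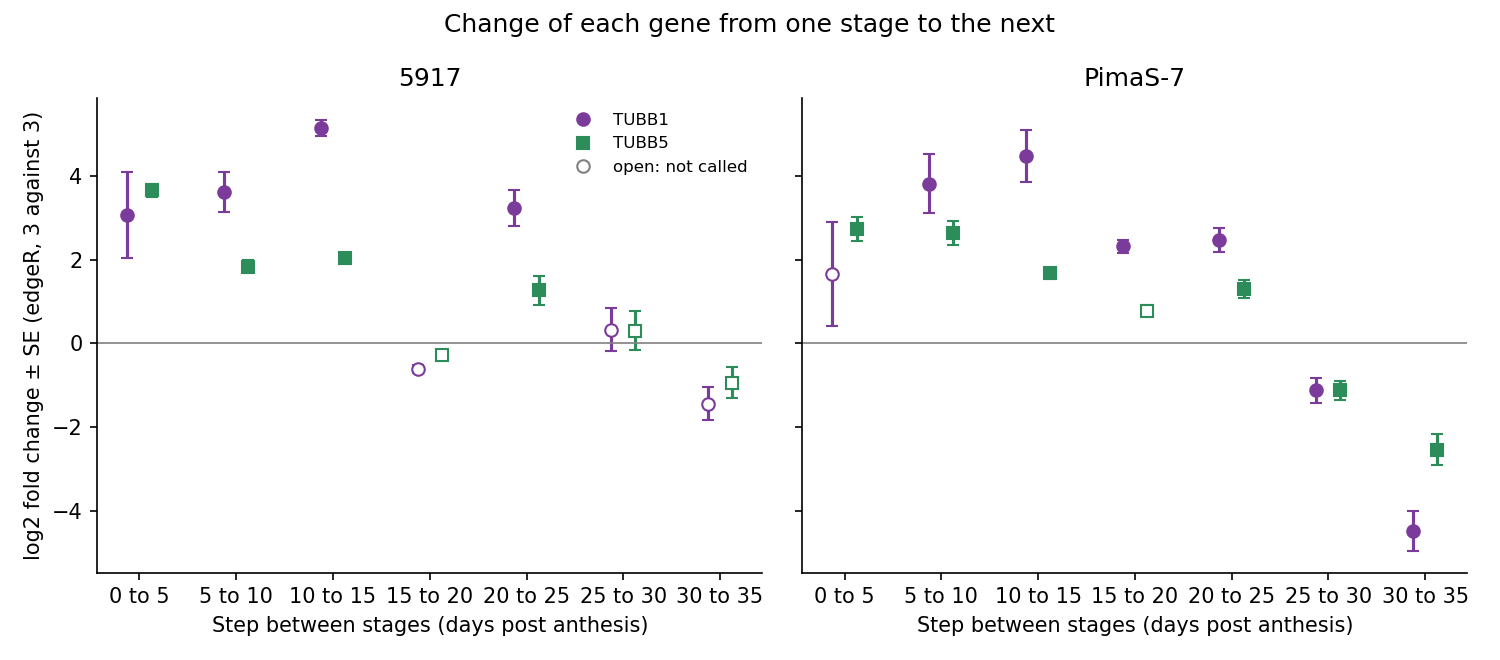
Log2 fold change from each stage to the next by edgeR, with bars for SE, for 5917 (left) and PimaS-7 (right), and open markers for changes not called. From 5 DPA on TUBB1 shows the larger rises, up to 5.15 in 5917 and 4.48 in PimaS-7 from 10 to 15 DPA. It also shows the larger fall, -4.47 in PimaS-7 from 30 to 35 DPA.

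The genes were next compared with each other inside each library, as the log2 ratio of TUBB1 to TUBB5 with 1 added to each FPKM, which keeps it finite and pulls it toward 0 where a gene is low. TUBB5 was the higher gene in all libraries up to 20 DPA and TUBB1 in all libraries of 25 and 30 DPA. In 5917 the ratio was -0.86 ± 0.09 at 15 DPA and -1.19 ± 0.06 at 20 DPA, then 0.74 ± 0.14 and 0.81 ± 0.02 in the following pair of stages (SD, n = 3). In PimaS-7 it was -1.98 ± 0.12 at 15 DPA and -0.48 ± 0.16 at 20 DPA, then 0.67 ± 0.15 and 0.69 ± 0.10. At 35 DPA TUBB1 was still the higher gene in all 3 libraries of 5917, with ratios of 0.40, 0.28 and 0.20. In PimaS-7 the order had turned back, with -1.65, -0.97 and -1.11.

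Of 7 steps tested over both cultivars with an exact permutation test within cultivar, 2-sided, the ratio rose from 10 to 15 DPA by 2.81 log2 units and from 20 to 25 DPA by 1.54, and it fell by 1.23 from 30 to 35 DPA. Each had p = 0.005, the smallest that 400 arrangements allow, and an adjusted p of 0.00875 by the exact permutation test. In both cultivars the ratio moved the same way in these steps, by 2.98 and 2.64, by 1.93 and 1.14, and by -0.52 and -1.94 in 5917 and PimaS-7. The step from 0 to 5 DPA had the same p with a change of -2.11, but TUBB1 was then so low that the added 1 sets the ratio. With counts in place of FPKM the change was 0.11, so no direction is read from it. From 15 to 20 DPA the changes were -0.33 in 5917 and 1.51 in PimaS-7 (mean 0.59, exact permutation p = 0.1), and from 25 to 30 DPA 0.08 and 0.03 (p = 0.445).

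The FPKM of the genes reflect lengths other than the deposited gene lengths of 1718 bases for TUBB1 and 2890 bases for TUBB5. Counts per deposited length, a scale added after seeing the data, raised the ratio at every stage from 15 DPA on, and TUBB1 was then the higher gene in 2 of 3 PimaS-7 libraries at 20 DPA, with a mean of 0.13 ± 0.15 (SD, n = 3). The order at 25, 30 and 35 DPA was the same on that scale.

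**Figure D4:**
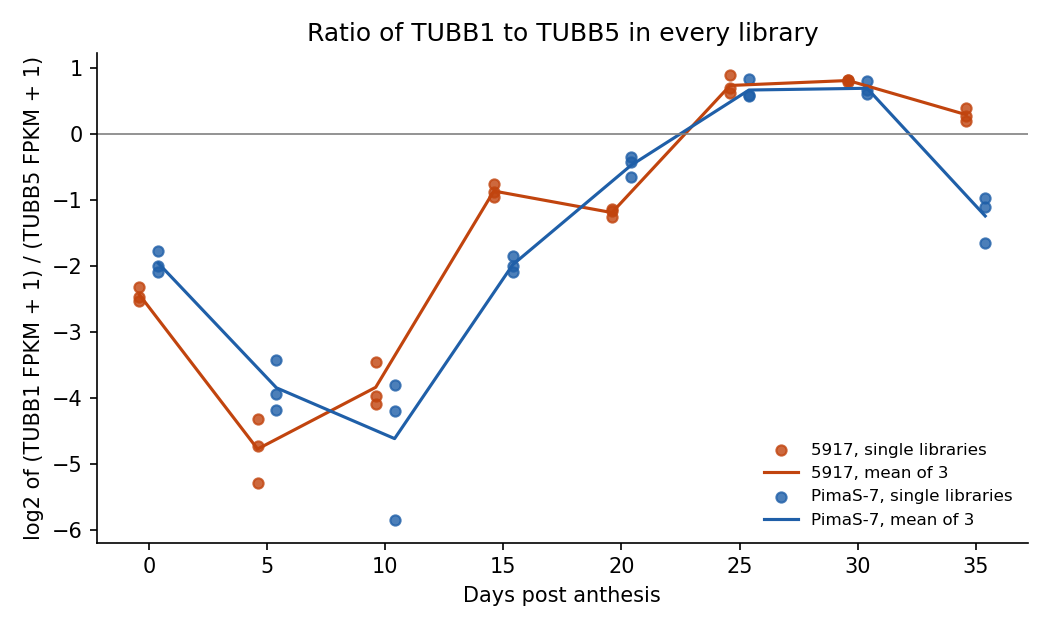
Log2 of the ratio of TUBB1 to TUBB5, with 1 added to each FPKM, against days post anthesis, with a point for each of the 48 libraries and lines through the means of 3. All 12 libraries of 25 and 30 DPA lie above 0, and at 35 DPA the cultivars lie on opposite sides of 0, with means of 0.29 in 5917 and -1.24 in PimaS-7.

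Between the cultivars, TUBB1 and TUBB5 were lower in PimaS-7 at 15 DPA and at 35 DPA. At 15 DPA TUBB1 was 4.74-fold lower (log2 difference -2.24, SE 0.11, adjusted p = 3.25e-05, edgeR) and TUBB5 2.15-fold lower (-1.10, SE 0.10, adjusted p = 0.000333), while 4.4% of all genes were called lower. For TUBB5 limma on FPKM gave -0.90, under the fold asked for. At 35 DPA TUBB1 was 24.9-fold lower (-4.64, SE 0.53, adjusted p = 0.00373) and TUBB5 8.54-fold lower (-3.09, SE 0.43, adjusted p = 0.00608), where 9.89% of genes were called lower. These calls at 35 DPA held under each alternative and without any 1 library.

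At the other stages fewer differences between the cultivars were called. TUBB5 was lower in PimaS-7 at 5 DPA (log2 difference -1.52, SE 0.28, adjusted p = 0.0176, edgeR), where 3.02% of genes were called lower, and the call was lost without 5917 5 DPA replicate 1 or 2. TUBB1 had -1.77 (SE 0.59, adjusted p = 0.111) at that stage. At 10 DPA, where 5.08% of genes were called, the differences were -1.54 (SE 0.57, adjusted p = 0.115) for TUBB1, called without PimaS-7 10 DPA replicate 2 (-1.08), and -0.72 (SE 0.14, adjusted p = 0.0202, under the fold asked for) for TUBB5. At 20 DPA, with 8.91% of genes called, they were 0.70 (SE 0.14, adjusted p = 0.0159, under the fold asked for) for TUBB1 and -0.03 (SE 0.12, adjusted p = 0.895) for TUBB5. At 25 DPA, with 6.91% of genes called, they were -0.11 (SE 0.47) and -0.03 (SE 0.40), with adjusted p of 0.915 and 0.968.

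At 30 DPA both genes were just short of a call, with -1.54 (SE 0.39, adjusted p = 0.0514, edgeR) for TUBB1 and -1.43 (SE 0.36, adjusted p = 0.0515) for TUBB5, where 7.83% of genes were called. DESeq2, the fit of all 48 libraries and the fit without 5917 30 DPA replicate 2 called both. At 0 DPA, where 2.51% of genes were called, TUBB5 had -0.67 (SE 0.15, adjusted p = 0.0566), and TUBB1 had too few counts for its difference of -0.42 (SE 1.62) to be read. No difference between the cultivars in the TUBB1 to TUBB5 ratio could pass 0.05, since 3 libraries against 3 cannot go below p = 0.1 in the exact permutation test. That value was reached at 15 DPA (difference -1.12), at 20 DPA (0.71) and at 35 DPA (-1.54), and at 0 and 5 DPA, where TUBB1 was near 0.

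**Figure D5:**
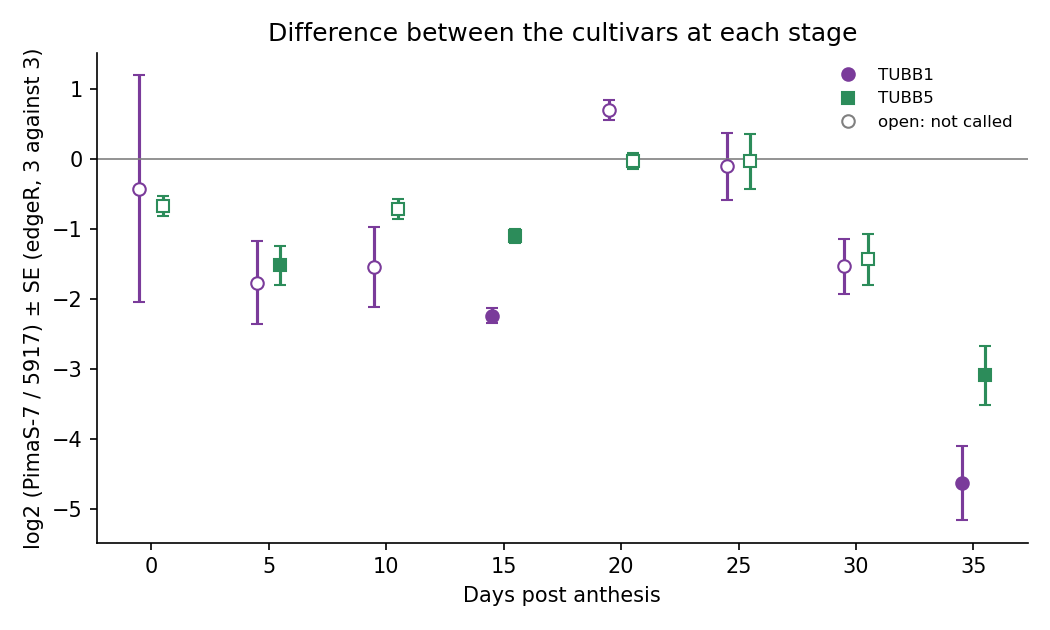
Log2 of the level in PimaS-7 over that in 5917 at each stage by edgeR, with bars for SE and open markers for differences not called. Both genes are called lower in PimaS-7 at 15 DPA (-2.24 and -1.10) and at 35 DPA (-4.64 and -3.09), and TUBB5 also at 5 DPA (-1.52).

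The test of a step between the cultivars was called for both genes from 15 to 20 DPA and for no other step. The log2 fold change of TUBB1 was higher in PimaS-7 by 2.93 units (SE 0.19, adjusted p = 7.33e-06, edgeR) and that of TUBB5 by 1.07 (SE 0.15, adjusted p = 0.000848), with 3.42% of genes called higher. In 5917 the log2 fold changes of this step were negative, at -0.60 for TUBB1 and -0.27 for TUBB5. For TUBB5 the call was lost in the fit of all 48 libraries (adjusted p = 0.168) and, by falling under the fold asked for, without PimaS-7 15 DPA replicate 1 or 20 DPA replicate 2 and by limma. In the last step the difference was -3.07 (SE 0.65, adjusted p = 0.153) for TUBB1 and -1.64 (SE 0.56, adjusted p = 0.348) for TUBB5, where 0.0262% of genes were called. There DESeq2, limma and the fit without PimaS-7 35 DPA replicate 2 called TUBB1, and the fit of all 48 libraries called both genes. Of the steps not called, that from 10 to 15 DPA (-0.68 for TUBB1, adjusted p = 0.577) was called for TUBB1 without PimaS-7 10 DPA replicate 2 (-1.14). That from 25 to 30 DPA (-1.48 for TUBB1 and -1.45 for TUBB5, adjusted p = 0.131 and 0.0968) was called for both genes without 5917 25 DPA replicate 2 and for TUBB5 without 5917 30 DPA replicate 2. In these tests 6.89% and 8% of genes were called, and in those from 5 to 10 DPA and from 20 to 25 DPA 0.0849% and 13.7%.

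Within groups, libraries high for one gene tended to be high for the other. Over the 30 libraries of 15 to 35 DPA, the deviations of log2(FPKM + 1) from the group mean had a Pearson r of 0.898 and a Spearman rho of 0.874 between TUBB1 and TUBB5, each with p = 1e-05, the smallest that 100000 permutations within groups can give, in 1 relation tested. Without the 2 libraries farthest from the median of TUBB1, 5917 35 DPA replicate 1 and PimaS-7 35 DPA replicate 2, r was 0.856. Over the 18 libraries of 25, 30 and 35 DPA r was 0.917. In the 12 libraries of 15 and 20 DPA, a split added after seeing the data, r was 0.633 with a permutation p of 0.171. The deviations of a library also hold its scaling, which both genes share.

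The other tubulin genes named in the part held of the study's tables followed other courses. Tubulin beta-9 chain (Gbar_D08G020390) on D08 had its highest mean at 20 DPA in both cultivars, 938 ± 498 FPKM in 5917 and 909 ± 201 FPKM in PimaS-7 (SD, n = 3), before TUBB1 and TUBB5. Its libraries differed widely within groups, from 422 to 1414 FPKM in 5917 at 20 DPA. There they overlapped those of 10, 15, 25 and 30 DPA, so the earlier peak stood clear of other stages in PimaS-7 alone. At 35 DPA it was at 256 ± 69.9 FPKM in 5917 and at 74.3 ± 16.7 FPKM in PimaS-7, a log2 difference of -2.33 (SE 0.34, adjusted p = 0.00701, edgeR). TUBA3 (Gbar_D11G025770), an alpha-tubulin gene, reached at most 5.12 FPKM in any library.

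Genes of microtubules outside the pair were taken from a list of 19 named genes in the intervals, and their counts are descriptions with no test of the list. The list holds WDL2 Gbar_D11G032910 and SP1L2 Gbar_D08G013370, which the study picked from these same libraries, as it did TUBB1 and TUBB5. That these genes change in the late stages along with TUBB1 and TUBB5 is therefore no independent evidence. From 20 to 25 DPA 5 of 16 tested were called higher in 5917 and none lower, with a median log2 fold change of 0.56 against 0.08 over all genes tested, of which 14.9% were called higher and 10.8% lower. The largest were both WDL2, of a family of microtubule-binding proteins, Gbar_D11G032910 (7.19, SE 0.48, adjusted p = 8.33e-05, edgeR) and Gbar_D11G027420 (1.82, SE 0.35, adjusted p = 0.00658). In PimaS-7 3 of 15 were called higher and none lower, with a median of 0.58 against -0.05 over all genes, of which 6.2% were called higher and 7.93% lower. They were led by WDL2 genes Gbar_D11G032910 (3.41, SE 0.30, adjusted p = 0.000581) and Gbar_D08G023850 (1.15, SE 0.28, adjusted p = 0.0256). TUBB1 and TUBB5 rose in the same step in both cultivars.

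From 25 to 35 DPA 6 of 14 tested microtubule genes were called lower in PimaS-7 and none higher, with a median log2 fold change of -1.05 against 0.19 over all genes, of which 15.8% were called lower and 18.2% higher. They were led by WDL2 Gbar_D11G032910 (-3.13, SE 0.51, adjusted p = 0.00388, edgeR) and the Tubulin beta-9 chain gene (-2.99, SE 0.38, adjusted p = 0.00186). In 5917 2 of 15 were called lower and none higher, with 2.43% and 1.07% of all genes. They were the TAN genes Gbar_D11G028740 and Gbar_D08G023330, known for placing the plane of cell division, with means of 0.580 and 0.340 FPKM at 25 DPA and no count at 35 DPA.

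Genes of the secondary wall and of cellulose were counted beside them. From 10 to 15 DPA 4 of 4 secondary wall genes tested were called higher in 5917 and none of 3 in PimaS-7. Of all genes 8.43% and 5.45% were called higher. From 15 to 20 DPA 2 of 4 were called lower in 5917 and 2 of 4 higher in PimaS-7. The difference of that step between the cultivars was called higher for 3 of 4, as for TUBB1 and TUBB5. Its median was 3.97 against 0.01 over all genes, of which 3.42% were called higher. From 20 to 25 DPA 3 of 4 secondary wall genes tested were called higher in 5917 and 3 of 4 in PimaS-7, none lower, with medians of 2.18 and 2.62 log2 units. Over all genes the medians were 0.08 and -0.05, with 14.9% and 6.2% called higher. TBL43, of a family that acetylates wall polysaccharides, had 5.54 (SE 0.25, adjusted p = 5.65e-05, edgeR) in 5917 and 4.85 (SE 0.31, adjusted p = 0.000265) in PimaS-7. MYB86, named after a MYB regulator, had 3.22 (SE 0.39, adjusted p = 0.000874) and 3.84 (SE 0.36, adjusted p = 0.00069). From 25 to 35 DPA none of the 4 was called in 5917, while MYB86 (-3.08, SE 0.52, adjusted p = 0.00423) and TBL43 (-2.18, SE 0.36, adjusted p = 0.00395) were called lower in PimaS-7, where 15.8% of all genes were.

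Of the cellulose list 1 of 7 genes tested was called higher in 5917 from 20 to 25 DPA and 2 lower, and in PimaS-7 none higher and 2 lower. Of all genes 14.9% were called higher and 10.8% lower in 5917, and 6.2% and 7.93% in PimaS-7, so the count of 1 higher in 5917 was near the background. Lower in 5917 were CSLE6 Gbar_D11G025800, with counts of 144 to 167 per library at 20 DPA and 0 to 3 at 25 DPA, and CSLD3, a cellulose synthase-like gene (-1.995, SE 0.59, adjusted p = 0.0361, edgeR). The gene called higher was SUS2, a sucrose synthase that supplies the sugar nucleotide for cellulose (1.999, SE 0.52, adjusted p = 0.0216). In PimaS-7 CSLD3 (-1.69, SE 0.30, adjusted p = 0.0079) and CESA6, of the cellulose synthases (-1.004, SE 0.18, adjusted p = 0.00833), were called lower. The list is limited to named genes of the intervals and holds no CESA gene but CESA3 and CESA6, so its counts do not describe cellulose synthases at large. From 25 to 35 DPA none of 6 tested was called in 5917, while in PimaS-7 SUS2 (1.96, SE 0.56, adjusted p = 0.0275) was called higher and 2 of 7 were called lower, CSI1, which links cellulose synthase to microtubules (-1.89, SE 0.27, adjusted p = 0.0027), and CESA3 (-1.67, SE 0.24, adjusted p = 0.0026).

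Between the cultivars at 35 DPA, where TUBB1 and TUBB5 differed most, 1 of 13 microtubule genes tested was called higher in PimaS-7 and 4 lower, with a median log2 difference of -0.26 against 0.15 over all genes. Of all genes 8.32% were called higher and 9.89% lower, against which the counts of all lists at this stage are to be read. The lowest were TUBA3 (-3.13, SE 0.73, adjusted p = 0.0227, edgeR), from counts of 5 to 49 per PimaS-7 library, and WDL2 Gbar_D11G032910 (-2.42, SE 0.48, adjusted p = 0.0144), while WDL2 Gbar_D11G027420 was higher (1.16, SE 0.24, adjusted p = 0.0162). Of 4 secondary wall genes MYB86 (-1.85, SE 0.48, adjusted p = 0.0315) and TBL43 (-1.71, SE 0.38, adjusted p = 0.0196) were lower and CCR1, named after a lignin enzyme, was higher (1.44, SE 0.20, adjusted p = 0.00603). Of 7 cellulose genes SUS2 was higher (1.97, SE 0.22, adjusted p = 0.00346), as was CSLE6 Gbar_D11G025800, with at most 5 counts per 5917 library, and none was lower. So not every gene of these lists had the direction of TUBB1 and TUBB5.

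Markers of other cells that a fiber sample could hold were checked by their summed FPKM. The 6 markers of dividing cells, mainly histone genes, summed to 138 to 207 in ovules and to 22.3 to 52.6 from 25 DPA on. In 5917 3 of these 6 were called higher from 20 to 25 DPA, when TUBB1 and TUBB5 rose, with sums of 43.1 to 52.1 and of 35.3 to 52.6, and their part in the result was not tested. The 4 genes of green tissue summed to 19.4 to 39.9 in 5917 at 25 DPA against 2.19 to 3.07 at 20 DPA, and in PimaS-7 to 5.79 to 15.4 against 2.69 to 4.37. They were at 18.5 to 24 in 5917 and at 1.60 to 8.63 in PimaS-7 at 35 DPA, and TUBB1 and TUBB5 differed in the same direction in these comparisons. From 25 to 30 DPA in PimaS-7 the sum went from a median of 6.11 to 15.5 while both genes fell. Nearly all of it was PSBW, with a mean of 27.4 FPKM in 5917 at 25 DPA, and PSBT was at 0.615 FPKM there and PSAN and psbW lower. Their part in the changes of TUBB1 and TUBB5 was not tested. The 3 markers of seed and embryo summed to at most 0.781 from 25 DPA on, with 1 to 2 of them at 0 in every library of a group. The 7 expansin genes taken as marks of growing fiber summed to 2.38 to 46 over all groups, with 1 to 6 of them at 0 throughout a group.

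The genes whose course was most like that of each member were found by Pearson's r over the 16 group means of log2(FPKM + 1), among 45512 genes with a mean of at least 0.5 FPKM. These values are descriptions over points that share stages and cultivars. TUBB1 and TUBB5 had r of 0.930 with each other, which placed TUBB5 at 257 in the order of TUBB1 and TUBB1 at 394 in that of TUBB5. Their Spearman rho was 0.985, and by rho only 1 of the 5 genes closest to TUBB1 and 2 of the 5 closest to TUBB5 were the same, so the lists depend on the measure. Closest to TUBB1 were Gbar_A02G004690 (0.990), Gbar_A07G013280 (0.989), Gbar_D09G010160 (0.987), Gbar_D07G004610 (0.986) and Gbar_D03G007330 (0.986), which carry no name here. Among the named genes they were QDR3, a membrane transporter (0.972), SAP8, a zinc finger protein (0.965), Tom1l2 (0.955), SAUR32, of an auxin-responsive family (0.951), and a BI1-like gene, Gbar_D08G021090 (0.935).

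Closest to TUBB5 was Gbar_A11G032900, with r of 0.997 and a mean of 337 FPKM over all libraries against 331 for TUBB5. It lies on A11, the chromosome of the A subgenome that corresponds to D11, carries no name in the tables used, and reads shared with TUBB5 were not looked at. Next came Gbar_D06G022000 (0.994), Gbar_A09G019960 (0.991), Gbar_D01G015650 (0.990) and Gbar_D07G023320 (0.989). Among the named genes the closest were RIN4, of plant immunity (0.989), GSTF8, a glutathione transferase (0.975), ACBP4, which binds acyl-CoA (0.972), ECH, a protein of the Golgi (0.968), and a vacuolar pyrophosphatase pump gene, Gbar_D08G022900 (0.958). No gene was among the 5 closest of both members.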

How the data were processed

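RNA of 48 libraries was sequenced. Per the study's methods, the authors trimmed the reads, aligned them with HISAT2 (version not given in the sources used here) to the Pima 3-79 genome and quantified them with StringTie. Deposited for every gene and library are a whole read count and an FPKM value, and the program that made the counts is not given in the sources used here. A gene length column was used for 1 added scale only.

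Differential expression was tested in R 4.3.3 by the quasi-likelihood method of edgeR 4.0.16, after TMM scaling and filterByExpr (minimum count 10), with Benjamini-Hochberg adjustment over all genes tested. Calls needed an adjusted p no higher than 0.05 and a change of 1 or more on the log2 scale. There were 14 steps, 2 late comparisons, 8 comparisons of cultivars and 7 interactions on 12 libraries each. Alternatives were DESeq2 1.42.0, DESeq2 size factors, no filter, a replicate block, limma 3.58.1 on log2(FPKM + 1) and log2(FPKM + 0.1), leaving out single libraries, and 1 joint model of the 48 libraries. CPM were TMM-normalized over all libraries. Ratios, correlations and exact tests used Python 3.11.15 and scipy 1.17.1. The fits were tested on simulated data.

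Groups came from the deposited labels. The study calls the replicates biological, and nothing read here says that each came from a separate plant, so p-values measure the spread between these samples. Replicate numbers do not pair the samples, since no 2 groups compared had all 3 correlations of same-numbered deviations over 0.1. Members, lists and the late comparisons were chosen with earlier results of these data known. Lists hold named genes of the intervals in the part of the tables held. Of 7 green tissue and 9 growing fiber genes listed, 4 and 7 were analysed. Named genes are both members, the other named tubulin genes, up to 2 genes per direction with the largest change among those called in each list described, and the 5 closest genes overall and by name.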

Additional observations from a re-analysis of the deposited data

Results flagged for a closer look

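The step from 15 to 20 DPA differed between the cultivars for both genes, by the test of the difference itself. It is not particular to them, since 3 of 4 secondary wall genes and 3 of 18 microtubule genes tested were called higher too. Of all genes 3.42% were. TUBB1 changed by 2.93 log2 units more in PimaS-7 than in 5917 (SE 0.19, adjusted p = 7.33e-06, edgeR), and all 3 PimaS-7 libraries of 20 DPA were above all 3 of 15 DPA while those of 5917 were all below. TUBB5 changed by 1.07 log2 units more (SE 0.15, adjusted p = 0.000848, edgeR), with the same pattern of libraries. Without PimaS-7 15 DPA replicate 1 or 20 DPA replicate 2 the value of TUBB5 was 0.984 or 0.98 and under the fold asked for, while TUBB1 kept its call without any 1 of the 12 libraries.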

How the results depend on the processing

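Of the results under alternatives, 1370 were counted as unchanged, 43 lost a call, 25 gained one, 40 changed sign and 12 stages moved. The 1370 include stages and percents of the highest mean, which have no direction or threshold. Each of these was rerun without each of 24 libraries, many from stages that could not alter it. Cultivar differences of the ratio are also included, and their exact permutation test could not pass the threshold. The count of 1370 is therefore no measure of how stable the calls were. All values are log2 changes in the order given, and the cause of a change was not tested. The rises of both genes in the steps from 5 to 15 DPA and those of TUBB1 in PimaS-7 from 15 to 25 DPA kept their calls under every alternative run. So did the cultivar differences at 35 DPA and the falls in PimaS-7 by the direct test of 35 against 25 DPA. The single falls there, from 25 to 30 DPA and from 30 to 35 DPA, lost their calls under some alternatives, as given below.

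DESeq2 added calls for TUBB1 in 5917 at 35 against 30 DPA (-1.465) and 35 against 25 DPA (-1.13), for TUBB1 between cultivars at 5 DPA (-1.80), for both genes at 30 DPA (-1.59 and -1.49), and for the cultivar difference of TUBB5 from 25 to 30 DPA (-1.47) and of TUBB1 from 30 to 35 DPA (-3.04). The fit of all 48 libraries added both genes at 30 DPA (-1.64 and -1.54), TUBB5 from 25 to 30 DPA (-1.52) and both genes from 30 to 35 DPA (-3.04 and -1.605), and lost TUBB1 in PimaS-7 at 30 against 25 DPA (-1.215) and the cultivar difference of TUBB5 from 15 to 20 DPA (1.065).

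By limma with 1 or 0.1 added to FPKM, calls were lost for TUBB5 in PimaS-7 at 25 against 20 DPA (0.963 and 0.965), for TUBB1 (-0.685 and -0.685) and TUBB5 (-0.711 and -0.712) in PimaS-7 at 30 against 25 DPA, for TUBB5 between cultivars at 15 DPA (-0.9025 and -0.905) and for its cultivar difference from 15 to 20 DPA (0.989 and 0.9915). Calls were gained for TUBB1 at 30 DPA (-1.016 and -1.017) and for its cultivar difference from 30 to 35 DPA (-3.13 and -3.16). Signs changed for uncalled values, TUBB5 at 20 DPA (0.0861 and 0.0863), the cultivar difference of TUBB1 from 5 to 10 DPA (-0.7725 and -0.491) and that of TUBB5 from 20 to 25 DPA (-0.2205 and -0.221). Ovule comparisons of TUBB1 and that at 5 DPA had no limma value, since it was filtered out.

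Same-numbered replicates did not deviate together, with correlations from -0.42 to 0.23. With the replicate block, calls were lost for TUBB5 in 5917 at 25 against 20 DPA (1.19), for TUBB1 in PimaS-7 at 30 against 25 DPA (-1.07) and for TUBB1 (-4.60) and TUBB5 (-2.62) at 35 against 30 DPA. Uncalled values changed sign for TUBB5 between cultivars at 25 DPA (0.0031) and for the cultivar difference of TUBB1 from 5 to 10 DPA (-0.20).

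The ratio from 0 to 5 DPA was -1.17 with 0.1 added and 0.11 on both count scales, and its cultivar difference at 0 DPA was -0.39 on both count scales. By CPM TUBB5 reached 10% at 15 DPA in 5917 and 15 DPA in PimaS-7, and 50% at 25 DPA in PimaS-7. The correlation of deviations was 0.633 for 15 and 20 DPA alone.

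With single libraries left out, steps in 5917 ranged from 2.40 to 3.70 for TUBB1 at 5 against 0 DPA, from 0.88 to 1.43 for TUBB5 at 25 against 20 DPA, and from -0.032 to 0.82 for TUBB1 and -0.055 to 0.68 for TUBB5 at 30 against 25 DPA. Steps in PimaS-7 ranged from 1.08 to 7.43 for TUBB1 at 5 against 0 DPA, from -1.31 to -0.76 for TUBB1 and -1.26 to -0.87 for TUBB5 at 30 against 25 DPA, and from -5.11 to -4.19 and -2.91 to -2.25 at 35 against 30 DPA. Cultivar differences ranged from -6.28 to 0.22 for TUBB1 at 0 DPA, -1.81 to -1.29 for TUBB5 at 5 DPA, -2.06 to -1.08 for TUBB1 at 10 DPA and -0.11 to 0.0135 for TUBB5 at 20 DPA. At 25 DPA they ranged from -0.46 to 0.38 and -0.27 to 0.34, and at 30 DPA from -1.80 to -1.16 and -1.69 to -1.06, for TUBB1 and TUBB5. Cultivar differences of a step ranged for TUBB1 from -1.96 to 4.36 (0 to 5 DPA), -0.41 to 0.73 (5 to 10), -1.14 to -0.16 (10 to 15), -1.96 to -1.11 (25 to 30) and -3.73 to -2.80 (30 to 35). For TUBB5 they ranged from 0.98 to 1.19 (15 to 20), -0.23 to 0.41 (20 to 25) and -1.82 to -1.08 (25 to 30). The ratio ranged from -0.12 to 0.39 from 5 to 10 DPA, and its cultivar difference at 25 DPA from -0.16 to 0.0086. The highest mean of 5917 lay between 25 and 30 DPA, and TUBB5 reached 50% between 15 and 25 DPA in 5917 and between 20 and 25 DPA in PimaS-7.

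Counts of genes called differed by over 1.5 times from the edgeR count in 12 of 31 comparisons by DESeq2, 12 by the fit of all libraries, 19 by limma with 1 added, 11 with the replicate block and 18 for the lowest with a library left out. In 5917 at 30 against 25 DPA the count was 18 against 1508 by DESeq2 and 2202 in the fit of all libraries, and at 35 against 30 DPA 8 against 829 and 771, so the low shares called there depend on the tool. In PimaS-7 at 35 against 30 DPA it was 1889 against 4998 and 5560, and 0 in edgeR with the replicate block, with 10546 genes at an unadjusted p under 0.05. It was also 0 without 30 DPA replicate 2 or 35 DPA replicate 1, and ran to 3193 with other libraries left out. TUBB1 was close to absent in ovules, where at most 21 counts per library leave its direction between cultivars unread.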
